A study of Homo sapiens with 6 samples.

Results

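The mRNAs of 7 translation factors were followed in eCLIP cluster lists of Angel1, namely EEF1A1, EIF4G1, EIF4G2, EIF4A1, EIF4B, EIF3A and PABPC1. A read cluster was assigned to a gene when 1 nt or more of it fell within the gene's span in the sense of transcription, introns included, with all coordinates on GRCh37. By this rule 192 of the 102843 clusters of FLAG-Angel1 replicate 1, 202 of the 96960 clusters of replicate 2 and 34 of the 5717 clusters of the control lay on the 7 genes. No cluster of any of the 3 lists lay on the opposite strand of these spans.

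In eCLIP, UV light cross-links protein to RNA, the protein is immunoprecipitated (the IP), and the recovered fragments are sequenced next to a size-matched input that skipped the immunoprecipitation. All libraries came from Flp-In T-REx HEK293 cells, an established line of human embryonic kidney cells made to accept tetracycline-inducible constructs. The cells of both FLAG-Angel1 replicates carried Angel1 with an N-terminal FLAG tag under the tetracycline-regulated promoter, on top of their own Angel1, and whether the line is a single clone is not given in the sources used here. Induction lasted 24 h at 5 ng/mL tetracycline in every case. All cells received 400 mJ/cm2 of UV light at 254 nm per the labels, and the IPs used an anti-FLAG antibody. The control is 1 IP with its input, named FLAG-only in the labels. In its labels the genotype reads FLAG-Angel1, but the study's methods describe control cells with no FLAG fusion, and these methods also mention a sample kept from UV light that no label identifies.

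Translation factors are abundant proteins that load ribosomes onto mRNAs and keep them moving. eIF4G1 is the scaffold that joins the cap-binding protein eIF4E, the helicase eIF4A and the poly(A)-binding protein PABPC1. Angel1 belongs to the CCR4-related family of phosphatases and nucleases and binds eIF4E. The clusters described here lie on the spans of the genes that encode these factors, introns included. Whether each lies on the mature mRNA was not determined, and they say nothing about contacts between the proteins.

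Several mRNAs of the translation apparatus start with C followed by a run of pyrimidines, the terminal oligopyrimidine (TOP) motif through which their translation is regulated together. Start sites of EEF1A1, EIF4B and EIF4A1 are shown, each with 20 bases upstream in lower case and the first 10 transcribed bases in capitals (RefSeq, GRCh38.p14).
EEF1A1, chr6:73521023-73521052, minus strand: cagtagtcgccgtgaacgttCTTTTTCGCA
EIF4B, chr12:53006436-53006465, plus strand: cgtgattgcctcatccgggtCTTTTGCGTT
EIF4A1, chr17:7572805-7572834, plus strand: tcgataggcgggcactccgcCCTAGTTTCT
The letters CTTTT stood exactly at the start, read on the strand of the gene, in EEF1A1 and EIF4B, which are 2 of the 5 members with a start site in the RefSeq table. Counted by start site, since a gene can have several, they stood there in 2 of the 8 start sites of these members and in 125 of 35116 start sites of all genes (0.356%). The match is a description of the annotated starts, and counts these exact letters only, not other pyrimidine runs after a C. EIF3A and PABPC1 had no start site in the table used, so whether they open in this way was not seen. No cluster lay at the start of the EEF1A1 span in any library, the nearest beginning 1089 nt into it, and the sequences under the clusters themselves were not read because the clusters are on GRCh37.

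For each cluster the authors gave the log2 fold, which is the log2 of the IP reads over the input reads after scaling both to the size of their library, and a P for that enrichment. Enriched clusters were those with a log2 fold above 0 and a P under 0.05. These P are not adjusted for the number of clusters, and each compares the reads of an IP with those of its input rather than conditions. With 2 FLAG-Angel1 replicates and 1 control, no test between groups was made. The deposited folds and P allowed whole reads to be inferred for every cluster with a P below 1. The inferred library sizes were 3396701 (IP) and 722085 (input) reads in replicate 1, 2543630 and 2812210 in replicate 2, and for the control 209788 and 3249250. The small input of replicate 1 meant that 30 IP reads were needed over 1 input read to pass the threshold, compared with 7 in replicate 2 and 2 in the control. Intervals given below cover counting error only, at 95%. Those of shares treat clusters as independent, though clusters of a gene can share reads.

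Clusters on the translation factor genes were enriched more often than the average cluster in both FLAG-Angel1 replicates. On the 7 genes 108 of 192 clusters were enriched in replicate 1 (56.2%, Wilson interval 49.2 to 63.1), against a background of 11.7% over all clusters of that library. In replicate 2 the number was 172 of 202 (85.1%, interval 79.6 to 89.4), against 40.7%. In the control 30 of 34 were enriched (88.2%, interval 73.4 to 95.3), close to its background of 91.8%. At the stricter threshold of 0.001 on P, 55 clusters (28.6%) passed in replicate 1 where 4.22% of the library did, 148 (73.3%) in replicate 2 where 17.0% did, and 4 (11.8%) in the control where 64.5% did. The median log2 fold on the 7 genes was 1.47 in replicate 1 and 2.55 in replicate 2, above the library medians of 0.57 and 1.73. In the control the median on the 7 genes was 2.45, below the library median of 5.20 but not below the medians of these genes in the replicates. Enriched control clusters had a median of 4 IP reads both on the 7 genes and over the library. Their median input was 9 reads on the 7 genes and 2 over the library. The control values are thus set against a background with less input. The 7 genes also had deep coverage in the FLAG-Angel1 replicates. The median was 112 IP reads per enriched cluster in replicate 1 and 46 in replicate 2, compared with 76 and 17 over all enriched clusters. Abundant mRNAs pass a threshold on P more easily, and the part of depth in these shares was not tested.

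**Figure D1:**
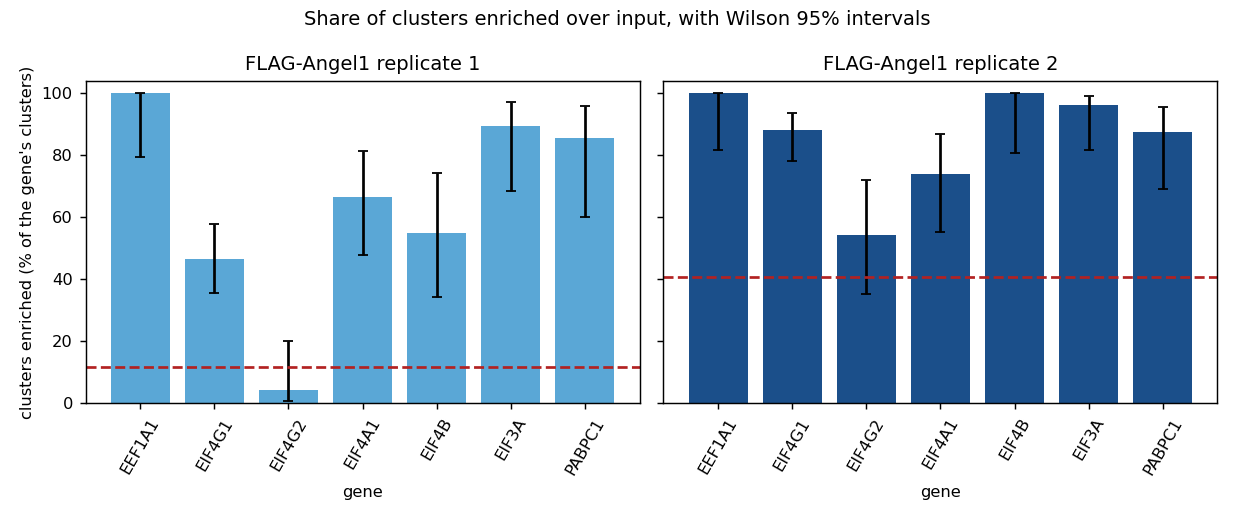
Percentage of each gene's clusters (y axis) that were enriched over input in the FLAG-Angel1 replicates, with Wilson 95% intervals as error bars and the percentage over all clusters of the library as a dashed line (11.7% and 40.7%). EIF4G2 is at 4.17% in replicate 1 and 54.2% in replicate 2, and EEF1A1 is at 100% in both.

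The genes differed in how high their clusters stood. In replicate 1 the median log2 fold of a gene's clusters ran from 2.11 (EEF1A1) through 1.67 (EIF4B), 1.64 (EIF4A1), 1.62 (EIF3A), 1.44 (PABPC1) and 1.27 (EIF4G1) to 1.05 (EIF4G2). In replicate 2 the order was EIF3A with 3.13, EEF1A1 with 3.09, EIF4B with 2.73, EIF4G1 with 2.54, EIF4A1 with 2.18, PABPC1 with 1.88 and EIF4G2 with 1.56. The quartile ranges of neighbours in these orders overlapped throughout, so that neighbouring ranks do not separate the genes. EEF1A1 and EIF4G2 were apart in both replicates, with quartile ranges of 1.96 to 2.67 and 0.80 to 1.34 in replicate 1 and of 2.65 to 3.30 and 1.31 to 1.97 in replicate 2. Clusters of a gene share its transcripts and often the same reads, and are not replicates of one another.

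**Figure D2:**
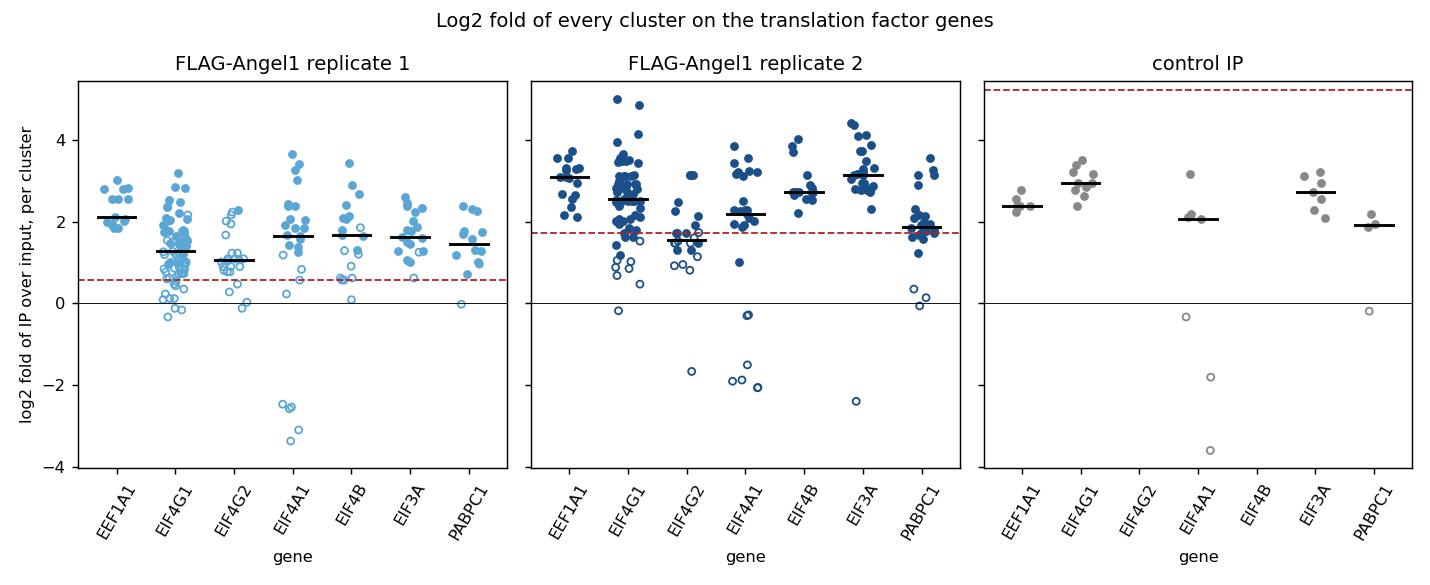
Log2 fold of IP over input (y axis) for every cluster on each gene (x axis) in the FLAG-Angel1 replicates and the control, with enriched clusters filled, other clusters open, gene medians as black bars and the median of all clusters of the library as a dashed line (0.57, 1.73 and 5.20). EIF4A1 has a separate group of clusters below 0 in all 3 libraries, and EIF4G2 and EIF4B have no control cluster.

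Reproducible peaks were built from clusters with a positive log2 fold and a P under 0.001 in each replicate, by merging those that shared 1 nt or more in the sense of the gene. There were 35 such peaks on the 7 genes, of 2243 in the whole data set (1.56%). They held 48 of the 192 clusters on these genes in replicate 1 (25.0%) and 67 of the 202 in replicate 2 (33.2%), where the share over all clusters was 3.20% and 3.54%. EEF1A1 had 10 reproducible peaks, EIF4G1 7, EIF4A1 and EIF3A 6 each, EIF4B 4, PABPC1 2 and EIF4G2 0. With the threshold of 0.05 in both replicates the 7 genes had 67 peaks, and EIF4G2 still had 0. An enriched control cluster lay over 16 of the 35 peaks, which leaves 19 without one, and 18 had no control cluster at all. The same share over all 2243 peaks was not computed. These counts and those by gene below therefore have no background beside them. In this and the following paragraphs the log2 fold of a peak is the largest among its clusters in each replicate.

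EEF1A1 encodes the elongation factor eEF1A1, which delivers aminoacyl-tRNAs to the ribosome. All 15 clusters of replicate 1 and all 17 of replicate 2 on its span (chr6:74225473-74230755, minus strand) passed the threshold of 0.001, and all of them fell into the 10 reproducible peaks. Their log2 folds were within 1.85 to 3.02 in replicate 1 (SD 0.42) and 2.10 to 3.71 in replicate 2 (SD 0.49). They rested on 187 to 483 IP reads over 9 to 26 input reads in replicate 1, and on 66 to 153 over 8 to 27 in replicate 2. No other member had all its clusters past this threshold in either replicate.

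The peak of EEF1A1 with the largest lower fold of both replicates was chr6:74229606-74229666, 1089 nt into the span, with a log2 fold of 3.02 in replicate 1 (421 IP over 11 input reads, interval 2.17 to 4.04, the authors' P = 4.3e-16) and 3.27 in replicate 2 (105 over 12, interval 2.41 to 4.27, P = 1.3e-19). The highest cluster of replicate 2 was at chr6:74228082-74228150, at 3.71 (95 over 8 reads, interval 2.68 to 4.97). The clusters covered a limited stretch of the span, lying between 1089 and 3156 nt from its 5′ end in the FLAG-Angel1 replicates, of 5283 nt in all. With each span cut into 3 equal sections, the 3′ section of EEF1A1 held 0 of 15 and 0 of 17 clusters. Many of these clusters adjoin one another and can share reads, so no interval is given for this share.

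The control also had 6 clusters on EEF1A1, all enriched at 0.05 and none at 0.001, lying between 1092 and 3133 nt. The first 3 had the same log2 fold of 2.37 on 3 IP reads over 9 input reads. The other control clusters were at 2.78 (4 over 9 reads), 2.22 (6 over 20) and 2.54 (3 over 8). The intervals of these 6 ran from as low as -0.15 to as high as 4.62, and each contained the folds of the FLAG-Angel1 clusters over it. All 6 lay on a cluster enriched in both replicates, and 5 of the 10 peaks carried at least 1 of them. With 3 to 6 IP reads these intervals are too wide to decide whether the control and FLAG-Angel1 folds differ at these places. The other 5 peaks had no control cluster, so no control fold could be set beside them.

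**Figure D3:**
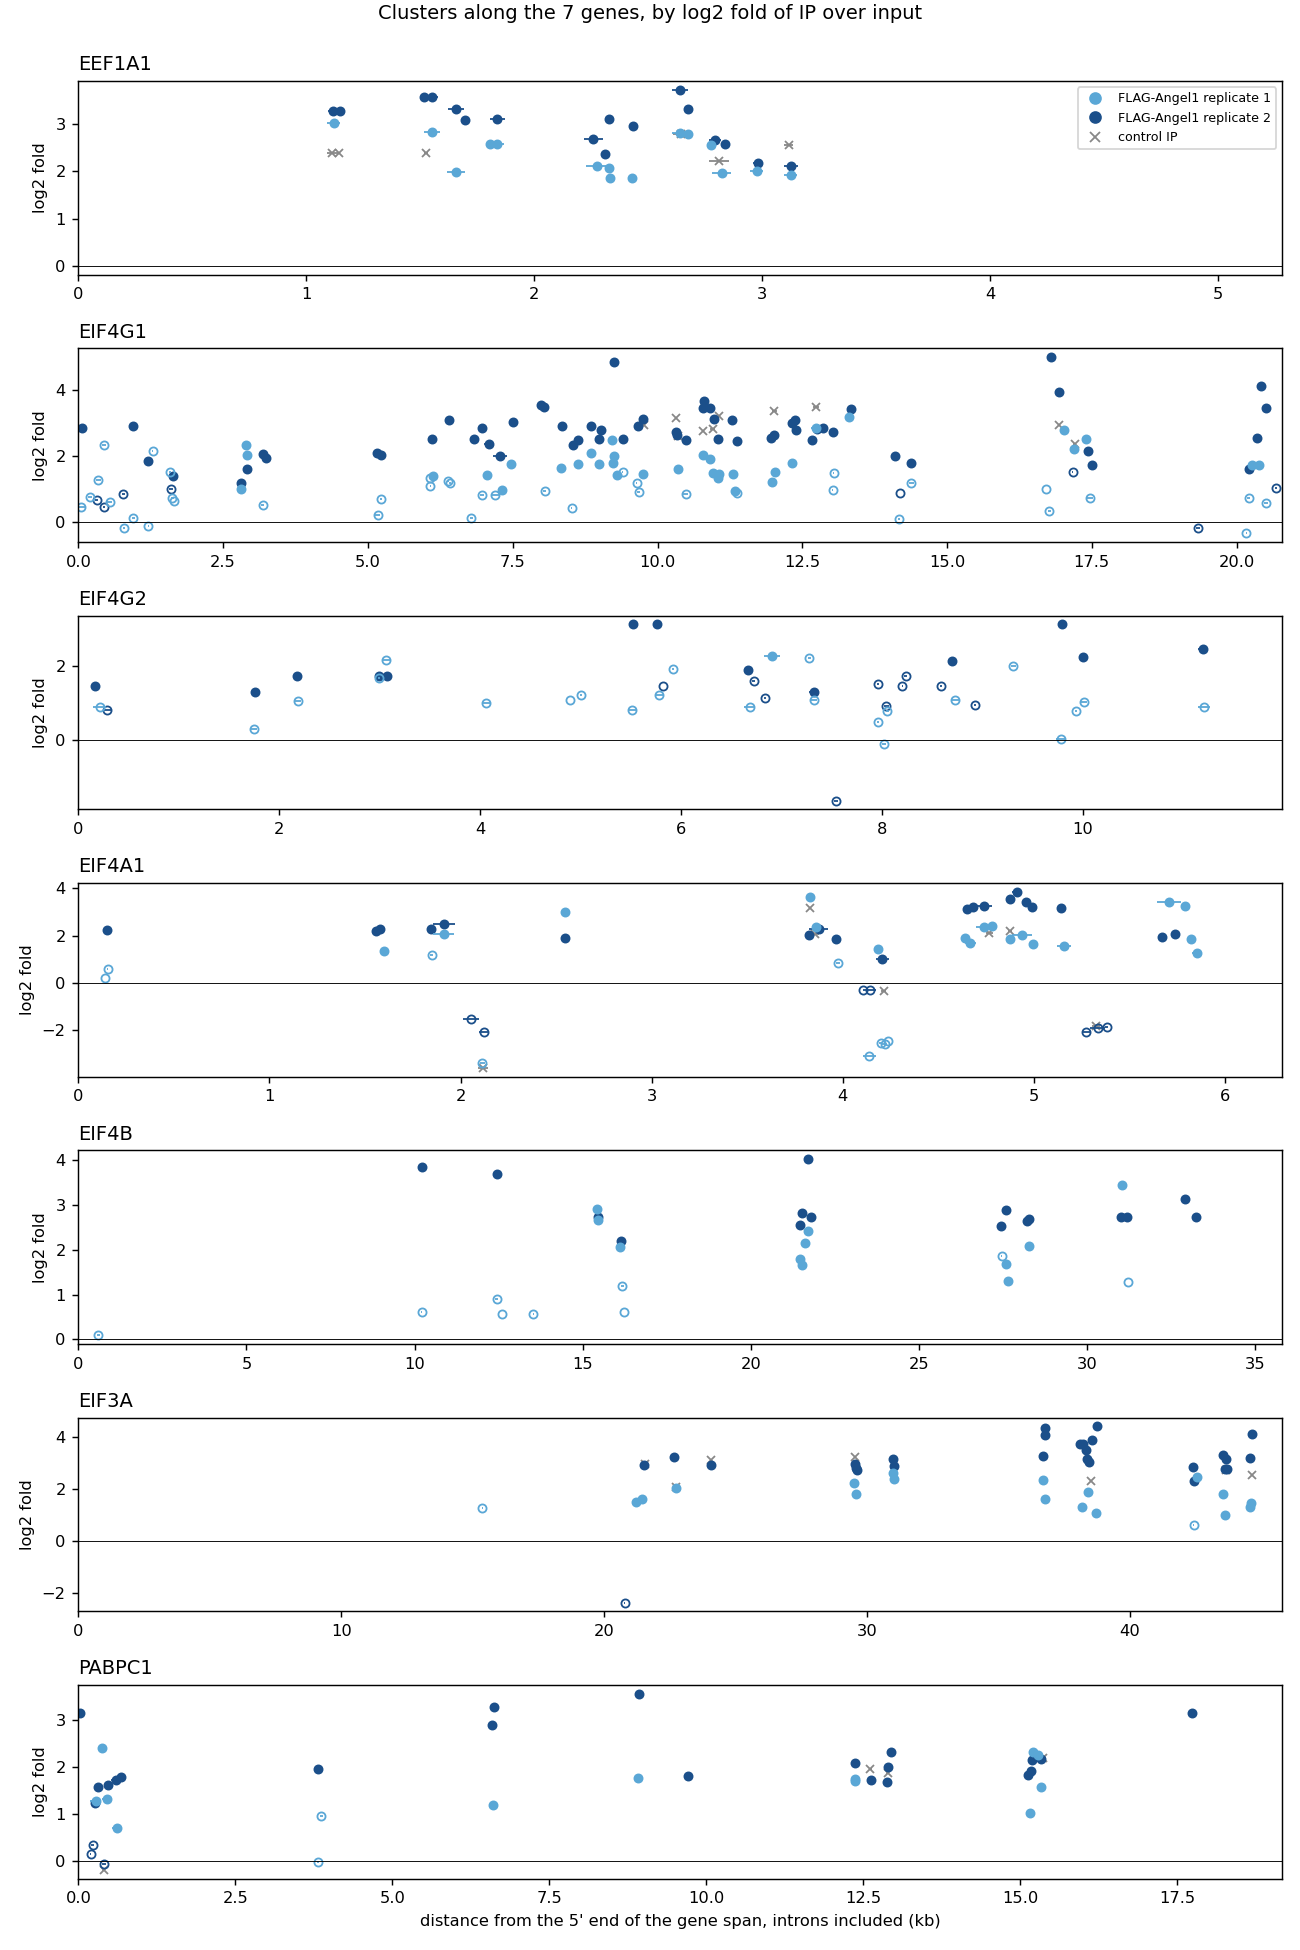
Log2 fold of each cluster (y axis) against the distance from the 5′ end of the gene span with introns included, in kb (x axis), for the FLAG-Angel1 replicates (circles, filled where enriched) and the control (crosses), with cluster widths as horizontal lines. Clusters of EEF1A1 end well before the 3′ end of the span, and the EIF4A1 clusters below 0 sit at 3 places.

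EIF4G1 held the most clusters, 73 in replicate 1 and 67 in replicate 2, spread over its 20791 nt (chr3:184032356-184053146, plus strand). In replicate 1 34 were enriched (46.6%, Wilson interval 35.6 to 57.9) and 11 passed 0.001, and in replicate 2 59 were enriched (88.1%, interval 78.2 to 93.8) and 51 passed 0.001. The middle section of the span held 25 of the 34 enriched clusters in replicate 1 (73.5%) and 36 of the 59 in replicate 2 (61.0%). The top peak by the lower fold was chr3:184045620-184045756, 13264 nt from the 5′ end, with 3.19 in replicate 1 (the authors' P = 1.5e-05) and 3.42 in replicate 2 (P = 1.2e-11). In replicate 1 its fold rested on 86 IP over 2 input reads, so that its interval ran from 1.30 to 6.26.

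This peak was free of control clusters and was also where the highest cluster of replicate 1 lay. The highest of replicate 2 was a cluster of 9 nt at chr3:184049143-184049151 with a log2 fold of 5.00, on 29 IP over 1 input read (interval 2.41 to 10.35). A cluster began 1 nt into the span in replicate 1 without passing the threshold (log2 fold 0.47, 39 over 6 reads, the authors' P = 0.59), and at 13 nt in replicate 2 with a fold of 2.86 (46 over 7 reads, P = 2.2e-08). The control had 10 clusters on EIF4G1, all enriched, at 2.37 to 3.49, with 3 to 8 IP reads each. Of these 3 passed 0.001, among them chr3:184045035-184045141, with 8 IP over 11 input reads (log2 fold 3.49, interval 1.98 to 4.94, the authors' P = 7.5e-06). It had the most IP reads of the control clusters on the 7 genes with a P below 1. At the same place the reproducible peak chr3:184045004-184045185 stood at 2.85 in replicate 1 and 2.83 in replicate 2, within the interval of the control. Of the 7 peaks of EIF4G1, 4 carried an enriched control cluster.

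EIF4G2 encodes DAP5, a relative of eIF4G1 that lacks the eIF4E-binding region and acts in cap-independent or alternative initiation. It had 24 clusters in each replicate (chr11:10818593-10830582, minus strand), of which 1 was enriched in replicate 1 (4.17%, Wilson interval 0.739 to 20.2) and 13 in replicate 2 (54.2%, interval 35.1 to 72.1). Both intervals contain the backgrounds of 11.7% and 40.7%. None passed 0.001 in replicate 1 and 3 did in replicate 2. The median log2 fold was 1.05 and 1.56, and 67.5% of all clusters of replicate 1 but only 35.1% of those of replicate 2 stood below it.

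The 1 enriched cluster of EIF4G2 in replicate 1, chr11:10823596-10823758, had a log2 fold of 2.27 (68 over 3 reads, the authors' P = 0.0015). The highest of replicate 2 were chr11:10825026-10825100 and chr11:10824794-10824842, both at 3.14 on 16 over 2 reads (the authors' P = 4.7e-04). The cluster pair with the smallest larger P lay 5740 nt from the 5′ end and stood at 1.23 in replicate 1 (44 over 4 reads, the authors' P = 0.13) and 3.14 in replicate 2. EIF4G2 was covered thinly, with a median of 22 IP reads per cluster in replicate 1 and 13 in replicate 2, and 7 of its clusters in replicate 1 rested on 1 input read. In replicate 1, its clusters at 2.23 (22 over 1 read) and 2.16 (21 over 1 read) did not pass the threshold. The part of depth in the low counts of EIF4G2 was not tested. The control had no cluster on EIF4G2.

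EIF4A1 encodes the DEAD-box helicase of the eIF4F complex, which unwinds the 5′ ends of mRNAs. On its span (chr17:7476024-7482323, plus strand) 18 of 27 clusters were enriched in replicate 1 and 20 of 27 in replicate 2, and 12 and 20 passed 0.001. The top of its 6 peaks was chr17:7480663-7480805, 4639 nt from the 5′ end, with 2.42 in replicate 1 (the authors' P = 6.0e-05) and 3.24 in replicate 2 (P = 2.3e-38). The highest cluster of replicate 1 was at chr17:7479845-7479856 with 3.65 on 59 over 1 read (interval 1.11 to 8.98), and that of replicate 2 at chr17:7480909-7480962 with 3.85 on 182 over 14 reads (interval 3.06 to 4.74). The 4 enriched control clusters stood at 3.15, 2.05, 2.11 and 2.19 on 4 to 5 IP reads each, and 3 of the 6 peaks carried one.

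EIF4A1 also held clusters depleted in the IP relative to the input, at a log2 fold of 0 or below, with 5 of them in replicate 1, 7 in replicate 2 and another 3 in the control. They lay at 3 places. At 2013 to 2099 nt from the 5′ end replicate 1 stood at -3.36, replicate 2 at -1.50 and -2.06, and the control at -3.59. At 4104 to 4233 nt replicate 1 had 4 clusters from -3.09 to -2.46 and among them an enriched one of 12 nt at 1.42 (88 over 7 reads), and the control had 1 of -0.33, whereas replicate 2 stood at -0.30 and -0.28 in the first part and had an enriched cluster of 1.02 in the second (132 over 72 reads, the authors' P = 1.2e-06). At 5253 to 5373 nt replicate 2 had 3 clusters from -2.05 to -1.87 and the control 1 of -1.80. Replicate 1 had no cluster at this last place. In the second part of the middle one, the enriched cluster of replicate 2 overlapped both the enriched cluster and the depleted clusters of replicate 1.

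The input was deep at these places, since the control fold of -3.59 requires at least 933 input reads in a cluster of 53 nt. A depleted cluster has a P of 1 in these lists, and no test of depletion was available. Single clusters below -1 also occurred on other members in replicate 2, on EIF3A at 20760 nt (-2.39) and on EIF4G2 at 7522 nt (-1.66), neither with a counterpart in replicate 1. RefSeq places 3 snoRNA genes, SNORA48, SNORD10 and SNORA67, within EIF4A1, and SNORA19 and LOC124900296 within EIF3A, SNORD97 within EIF4G2 and SNORD66 within EIF4G1. Whether any cluster lies on them was not determined, because the annotation is of another build. Without the clusters at 0 or below, the median of EIF4A1 was 1.85 in replicate 1 and 2.28 in replicate 2.

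EIF4B encodes an RNA-binding cofactor that stimulates the helicase activity of eIF4A. Its span of 35818 nt (chr12:53400176-53435993, plus strand) had 20 clusters in replicate 1, of which 11 were enriched (55.0%) and 4 passed 0.001, and 16 in replicate 2, of which all 16 were enriched and 14 passed 0.001. The top of its 4 peaks was chr12:53431193-53431223, with 3.44 in replicate 1 on 51 over 1 read (interval 0.90 to 8.77, the authors' P = 8.2e-04) and 2.73 in replicate 2 on 18 over 3 (interval 0.95 to 5.14, P = 5.9e-04). More reads stood behind the peak at chr12:53421799-53421948, which held the highest cluster of replicate 2, with 2.41 in replicate 1 (150 over 6 reads, interval 1.25 to 3.88) and 4.02 in replicate 2 (88 over 6, interval 2.84 to 5.50).

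The control had no cluster on EIF4B, and its 4 peaks were therefore free of control clusters. A missing control cluster on EIF4B or EIF4G2 does not show that the control held no reads there. The first enriched cluster of EIF4B began 15421 nt into the span in replicate 1 and 10212 nt in replicate 2.

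EIF3A encodes the largest subunit of eIF3, the complex that holds the small ribosomal subunit and the initiation factors together. Of its clusters (chr10:120794541-120840334, minus strand) 17 of 19 were enriched in replicate 1 (89.5%) and 26 of 27 in replicate 2 (96.3%), and 10 and 26 passed 0.001. It had the largest median difference between the replicates among the 7 genes, 1.51. The top of its 6 peaks, chr10:120809313-120809378, stood at 2.61 in replicate 1 (86 over 3 reads, the authors' P = 7.2e-05) and 3.16 in replicate 2 (105 over 13 reads, P = 4.1e-19), with no control cluster over it. This also held the highest cluster of replicate 1, and that of replicate 2 was at chr10:120801530-120801669 with 4.40 on 134 over 7 reads (interval 3.32 to 5.75), where replicate 1 stood at 1.06.

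The widest peak of the 7 genes, 511 nt at chr10:120801774-120802284, also lay on EIF3A and was formed by 2 clusters of replicate 1 (480 over 42 and 552 over 32 reads) and 6 of replicate 2. The folds there were 1.87 and 3.87. No enriched cluster lay in the first 21217 nt of this gene's 45794 nt in replicate 1 or in the first 21505 nt in replicate 2. The control had 7 clusters on EIF3A, all enriched, at 2.08 to 3.22 with 3 to 6 IP reads, and 4 of the 6 peaks carried one.

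PABPC1 encodes the cytoplasmic poly(A)-binding protein, which coats the mRNA tail and contacts eIF4G. Its span (chr8:101715144-101734315, minus strand) had 14 clusters in replicate 1, of which 12 were enriched (85.7%) and 3 passed 0.001, and 24 in replicate 2, of which 21 were enriched (87.5%) and 17 passed 0.001. Both its peaks lay close to the 5′ end of the span, beginning at 188 and 379 nt. The first stood at 1.27 in replicate 1 (580 over 51 reads, interval 0.86 to 1.72, the authors' P = 6.0e-10) and 1.57 in replicate 2 (97 over 36, interval 1.01 to 2.17, P = 7.1e-09). The second, the top by the lower fold, stood at 1.31 (327 over 28 reads, the authors' P = 2.5e-06) and 1.72 (107 over 36, P = 1.0e-10). These were low folds on many reads, in contrast to the top peak of EIF4B.

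The highest clusters of PABPC1 were not part of these peaks. That of replicate 1 lay at 369 nt, directly before the second peak (10 nt wide, 2.39 on 74 over 3 reads, interval 0.79 to 4.70). That of replicate 2 lay at 8906 nt (3.55 on 53 over 5 reads, interval 2.24 to 5.23). A cluster that began 5 nt into the span was found in replicate 2 (3.14, 40 over 5 reads, the authors' P = 6.2e-08) and had no counterpart in replicate 1. The 3 enriched control clusters, at 12596, 12863 and 15306 nt, stood at 1.95, 1.87 and 2.19 on 4 to 5 IP reads, and none lay on a reproducible peak. Under the second peak the control had a cluster at -0.19, and replicate 2 one at -0.06 next to its enriched clusters.

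**Figure D4:**
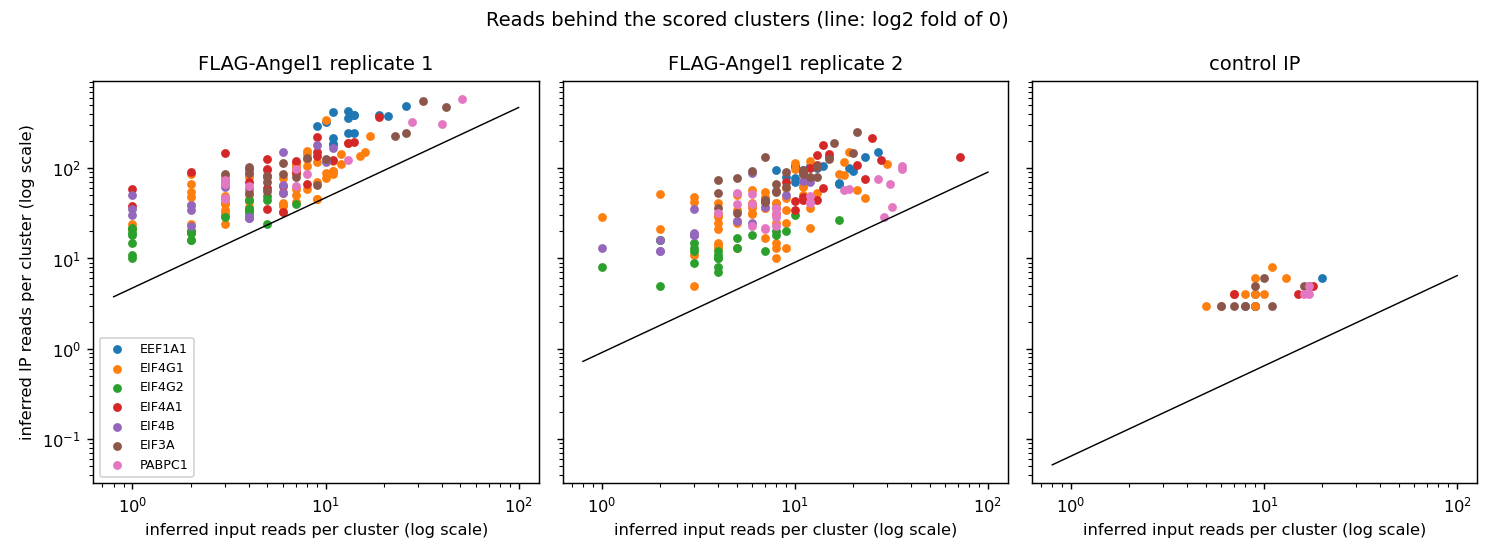
IP reads (y axis) against input reads (x axis) inferred for each cluster with a P below 1, both on log scales, in the FLAG-Angel1 replicates and the control, coloured by gene, with the line of a log2 fold of 0. The control clusters hold 3 to 8 IP reads, and the EIF4G2 clusters hold 10 to 68 in replicate 1 and 5 to 30 in replicate 2.

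The replicates had clusters on much the same stretches of these genes and differed in how high the clusters stood. Of the clusters on the 7 genes 85.9% in replicate 1 and 83.7% in replicate 2 overlapped a cluster of the other replicate, compared with 52.6% and 54.6% over all clusters. Over the 165 overlapping pairs the fold was higher in replicate 2 for 145, with a median difference of 1.10 (SD 1.06 over pairs). The difference over all 54100 pairs of the libraries had the same median of 1.10 (SD 1.25). By gene the median difference was 0.49 (PABPC1), 0.57 (EEF1A1), 1.01 (EIF4G2), 1.16 (EIF4B), 1.21 (EIF4A1), 1.27 (EIF4G1) and 1.51 (EIF3A). EEF1A1 was higher in replicate 2 in all 15 pairs with an SD of 0.40, and EIF4A1 had the widest spread with 1.41.

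**Figure D5:**
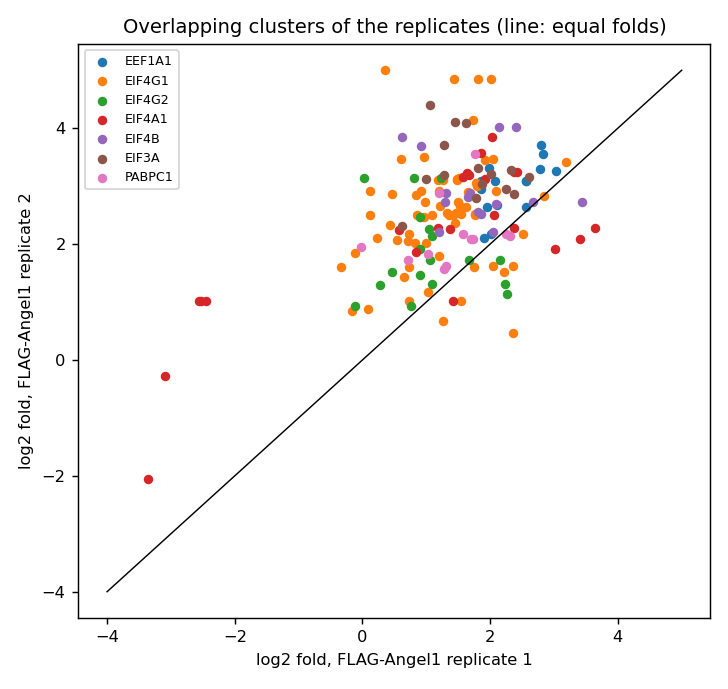
Log2 fold of IP over input in FLAG-Angel1 replicate 1 (x axis) and replicate 2 (y axis) for 165 pairs of overlapping clusters on the 7 genes, coloured by gene, with the line of equal folds. In 145 pairs the point lies above the line, and the points with a replicate 1 fold below -2 are clusters of EIF4A1.

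Along the spans, enriched clusters summed over the 7 genes were fewest in the 5′ section of the 3, but the genes differed. In replicate 1 it held 13 of 108 (Wilson interval 7.17 to 19.5%), the middle section 58 (53.7%) and the 3′ section 37 (34.3%). In replicate 2 the numbers were 37 of 172 (21.5%, interval 16.0 to 28.2), 74 (43.0%) and 61 (35.5%). In the control they were 3 of 30, 18 and 9. EIF4G1 weighed most in these sums, with 4, 25 and 5 enriched clusters from the 5′ to the 3′ section in replicate 1 and 13, 36 and 10 in replicate 2. EIF3A had 0, 5 and 12 in replicate 1 and 0, 6 and 20 in replicate 2. In replicate 1 the 5′ section held the fewest enriched clusters of EIF4G1, EIF4A1 (2, 4 and 12), EIF4B (0, 7 and 4) and EIF3A. It did not for EEF1A1 (3, 12 and 0), and it tied with another section for EIF4G2 (0, 1 and 0) and PABPC1 (4, 4 and 4). In replicate 2 the 5′ section held the fewest enriched clusters of EIF4B (1, 7 and 8) and EIF3A, but not of EEF1A1 (6, 11 and 0), EIF4G1 (13, 36 and 10), EIF4G2 (5, 4 and 4), EIF4A1 (5, 4 and 11) or PABPC1 (7, 6 and 8). Spans include introns, which were not separated from exons, so that these shares do not give positions on the mature mRNAs.

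Some members share sequence with copies elsewhere in the genome. RefSeq lists 50 numbered pseudogenes of EEF1A1, 13 each of EIF4A1 and PABPC1, and 9 of EIF4B, and reads that fit a gene and its copies equally well could have been lost or split in mapping. How such reads were treated is not given in the sources used here, and the values for these genes are uncertain to that extent.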

How the data were processed

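Clusters were those of 6 eCLIP libraries (3 IPs, each with its input). Per the labels' notes, reads were handled with cutadapt, STAR, SAMtools and UMI-tools on GRCh37 (hg19), with versions not given. The authors called clusters in each IP, normalized them to the input and deposited the log2 fold and the −log10 P of each. The inputs were not analysed as libraries of their own. The genes, spans and lists were chosen with earlier results of these data known.

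Library sizes and reads per cluster were inferred from the deposited log2 folds and P, using Fisher's exact test where an observed or expected number was below 5 and a Yates-corrected chi-square test otherwise. This returned whole reads, within 0.001 of the deposited −log10 P, for 100.00% of the clusters with a P below 1 in each library. An input of 1 read may be a minimum set by the pipeline, and adjacent clusters can share reads. Intervals were Clopper-Pearson for log2 folds and Wilson for shares. For each gene the clusters described were the peak with the largest lower fold, the highest enriched cluster of each replicate and the enriched control clusters, or, with no peak, the pair with the smallest larger P. Others were chosen after their values were seen. Overlap and read recovery were tested on simulated data. Python 3.11.15, numpy 2.4.6, pandas 2.3.3, scipy 1.17.1, mpmath 1.4.1 and matplotlib 3.10.9 were used. Exon and UTR classes and other translation genes were not analysed here, since no GRCh37 annotation was used. Start sites came from RefSeq tables of GRCh38.p14. Alternatives covered thresholds, overlap, strand, joining of clusters and left-out genes or replicates.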

Additional observations from a re-analysis of the deposited data

How the results depend on the processing

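Of 64 alternative values over the 7 genes, 55 stayed within 1.5 times the count or within the 95% interval of the median or share. Counts and shares cannot change direction, and no median became negative. Ignoring the strand could change nothing, since no cluster lay on the opposite strand. These alternatives did not vary the comparison with the share over all clusters of a library. At a P of 0.001 the enriched clusters fell to 55 in replicate 1 and 4 in the control. Without EIF4G1, the gene with the most clusters (added after the data were seen), 113 were enriched in replicate 2 and the median log2 fold of replicate 1 was 1.65. The reproducible peaks numbered 67 at a P of 0.05 in both replicates and 19 without those over an enriched control cluster. With 1 replicate left out, clusters past 0.001 in the other ranged from 55 to 148, since without the overlap every such cluster counts. The median difference between replicates was 0.97 over pairs enriched in both. Counts for single genes moved by over 1.5 times in 36 of 151 alternatives. Of these, EEF1A1 went to 10 enriched clusters in replicate 2 with abutting clusters joined, which were all 10 of its joined clusters. PABPC1 fell to 1 peak with a reciprocal overlap of 50%. The planned split by exon class was not run. No paired test of FLAG-Angel1 against the control was made, because the control has 1 library. Depth was low in the control, with 3 to 8 IP reads per enriched cluster, and on EIF4G2.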
